A study of Mus musculus with 18 samples.

Results

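The genes described here are 10 RNA-binding regulators of splicing that are known for their part in neuronal exon choice: Srrm3, Srrm4, Rbfox1, Rbfox2, Rbfox3, Ptbp1, Ptbp2, Nova1, Nova2 and Celf4. Members were all probe sets that the array annotation assigns to 1 of these symbols and to no other gene. This gave 25 probe sets of 9 genes, out of 45141 probe sets on the array, and no probe set carried the symbol Ptbp2 alone. All 25 lay above the filter on low values, so all 25 were among the 20766 probe sets tested. Of the 9 genes, 8 had more than 1 probe set, and the lead probe set of a gene is the one whose mean level over all arrays was highest.

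The study measured RNA of mouse cortex and striatum, dissected together at 6 weeks of age, on 18 expression arrays. The 3 genotypes were WT, CPEB4 GT/+ (a GT allele over a wild-type allele) and CPEB4 KO, with 2 animals each. The nature of the GT and KO alleles, the strain and the sex are not given in the sources used here, and no Cre or other shared allele is named. Each animal gave 3 RNA samples. INPUT was unfractionated total RNA. WASH was the RNA released from poly(U) agarose by 25% formamide, which is enriched for short poly(A) tails, and ELUTED was the RNA released by 90% formamide, which is enriched for long tails. Cpeb4 encodes a cytoplasmic polyadenylation element binding protein, which binds the 3′ ends of target mRNAs and can lengthen or shorten their tails.

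Neurons include very short exons, called microexons, that most other cells skip. SRRM4 and its relative SRRM3 are the activators of this program, and they bind upstream of the short exons. RBFOX proteins activate or repress exons according to the side of the exon on which their GCAUG motif lies. PTBP1 represses neuronal exons in precursors and non-neuronal cells, while NOVA1, NOVA2 and CELF4 bind neuronal pre-mRNAs and mRNAs. A microexon of Cpeb4 itself is among the known targets of SRRM4. The arrays give an RNA level per probe set, and the inclusion of exons was not measured.

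All values are log2 intensities normalized by the authors across arrays, so a difference of 1 is a 2-fold difference relative to the other RNAs on the same arrays. Subtracting an animal's WASH value from its ELUTED value, both on the log2 scale, gave its tail-fraction ratio, which is above 0 where a transcript was more abundant in the long-tail RNA. A probe set was called when the Benjamini-Hochberg adjusted p of the limma fit, taken over all 20766 probe sets, was under 0.05. SE is the fit's standard error and SD the spread between animals. Because the total amount of RNA in a fraction was normalized away, the position of 0 depends on the scaling. The median ratio of all tested probe sets was -0.17 as deposited, 0.13 with each array centred on the median of its tested probe sets (centred arrays), -0.06 after quantile normalization and -0.66 once each array was shifted so that its hybridisation controls matched those of the others (control-aligned arrays). A direction of a mean tail-fraction ratio that turned under 1 of these scalings is named where it occurs or listed in the closing section. The comparisons of each fraction with INPUT were made on the deposited scaling only, so how their directions hold under the other scalings was not tested.

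The targeted gene was read by 2 probe sets above the filter. Cpeb4 probe set 1449931_PM_at had INPUT values of 8.30 and 8.33 in WT, 7.38 and 7.13 in CPEB4 GT/+, and 6.55 and 6.92 in CPEB4 KO. The order of the groups followed the labels, and no animals of different genotypes overlapped. The KO minus WT difference was -1.58 (SE 0.14, adjusted p = 0.0229). The other probe set, 1420618_PM_at, had INPUT means of 7.89 ± 0.37, 7.16 ± 0.22 and 6.77 ± 0.21 (SD, n = 2 each) in the same order, with a KO minus WT difference of -1.12 that was not called (adjusted p = 0.202). Both KO means were above the filter level of 5.52. The 10 neuron markers measured, among them Snap25, Syt1 and Map2, had mean levels of 10.55 to 12.84, so neuronal RNA was present as the tissue label states. Array medians ran from 6.32 to 6.48, and the standard deviation across probe sets from 1.78 to 1.90 on ELUTED arrays, from 1.89 to 1.95 on INPUT arrays and from 1.96 to 2.01 on WASH arrays. The 3′ minus 5′ difference of the Actb control probe sets, a measure of how evenly a transcript was covered, was -0.47 to -0.31 on ELUTED arrays, -0.48 to -0.41 on INPUT arrays and -0.21 to -0.06 on WASH arrays. This Actb difference moved with the fraction. That of the Gapdh controls overlapped between fractions, at -0.05 to 0.06 on ELUTED arrays, -0.10 to -0.05 on INPUT arrays and -0.13 to 0.02 on WASH arrays. The part of coverage in the ratios below was not tested.

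Long-tail RNA held relatively more of the Srrm3, Srrm4, Nova2 and Ptbp1 lead transcripts, and short-tail RNA held more of Nova1, in all 6 animals. Of the 25 probe sets, 11 were called higher in ELUTED than in WASH (44%, against 25.8% of all probe sets tested), 5 were called lower (20%, against 47.5%) and 16 were called in all (64%, against 73.3%). All 6 animals lay above 0 for 12 of the 25 (against 24.3% of all) and below 0 for 5 (against 46.5%). The median ratio of the 25 was -0.01, and 19 of them lay above the median of all tested probe sets. Without the filter on low values the median of all was also -0.01, and 13 of the 25 lay above it. As deposited, genes with calls in the higher direction alone numbered 5 (Srrm3, Srrm4, Ptbp1, Nova2 and Celf4), genes with calls in the lower direction alone 2 (Rbfox2 and Nova1), and 2 had calls in both (Rbfox1 and Rbfox3). In 2 genes, Nova1 with 2 probe sets and Nova2 with 1, every probe set was called the same way. For Nova2 this follows from its single probe set being called. The shares of all genes with calls in 1 direction or in both were not counted.

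**Figure D1:**
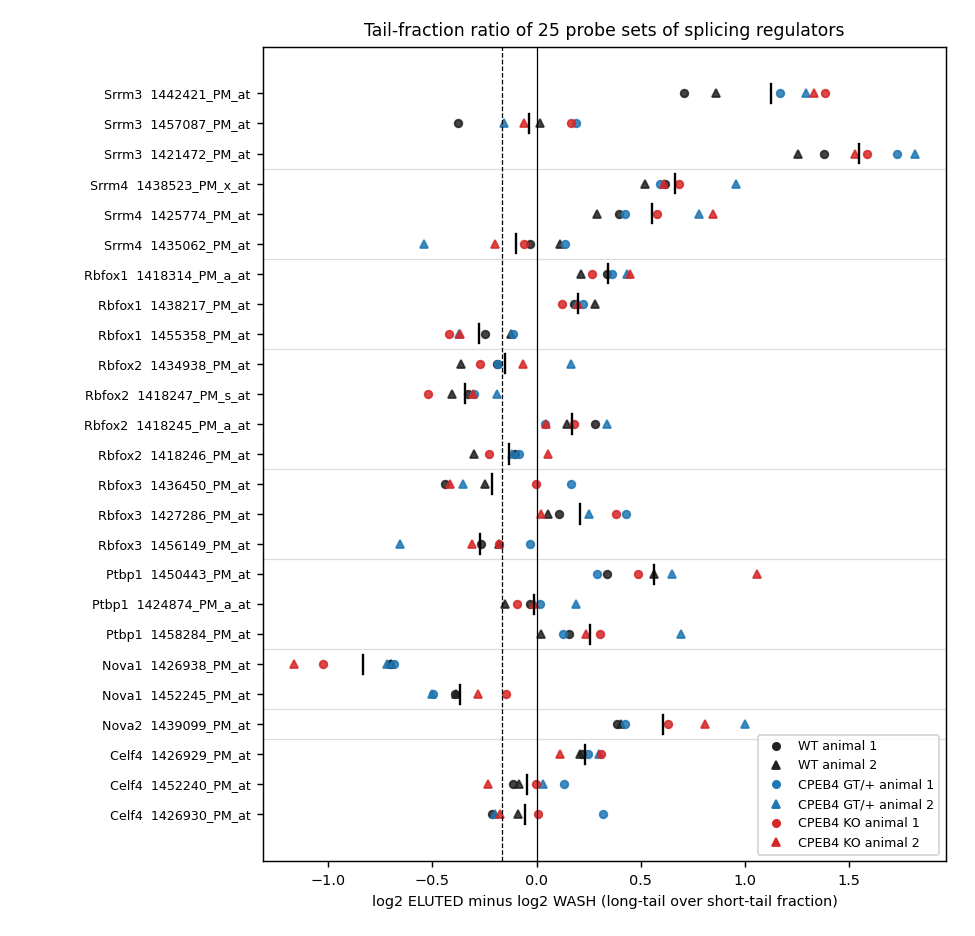
The horizontal axis gives the tail-fraction ratio (log2 ELUTED minus log2 WASH) of each animal for the 25 probe sets, listed by gene on the vertical axis; colours are genotypes, circles and triangles the 2 animals of each, short bars the mean of 6 and the dashed line the median of all tested probe sets (-0.17). Srrm3 1442421_PM_at and 1421472_PM_at lie to the right of 0 in every animal and Nova1 to the left. Srrm3 1457087_PM_at has 3 animals on each side of 0. The ratios are as deposited, and 0 moves with the scaling: of the probe sets below 0, 10 turn sign with centred arrays and 7 after quantile normalization, and 6 of those above 0 turn with control-aligned arrays.

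Only 3 of the 25 probe sets kept their call and direction under all 4 scalings: Srrm3 1442421_PM_at and 1421472_PM_at were higher in ELUTED, and Nova1 1426938_PM_at was lower. Over all tested probe sets, 30.8% kept a call under the 4 scalings, 2.48% as higher and 28.4% as lower. When each animal was left out in turn, 10 of the 16 called probe sets kept their call in all 6 fits. The share of all called probe sets that did so was not counted. The count of called members ran from 10 to 18 in those fits, and the count over all tested probe sets from 12374 to 16440. Without WT replicate 1 the called members numbered 10, with 7 higher and 3 lower. The calls over all tested probe sets then went from 15224 to 12374, of which 31.3% were higher in place of 35.2%.

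**Figure D2:**
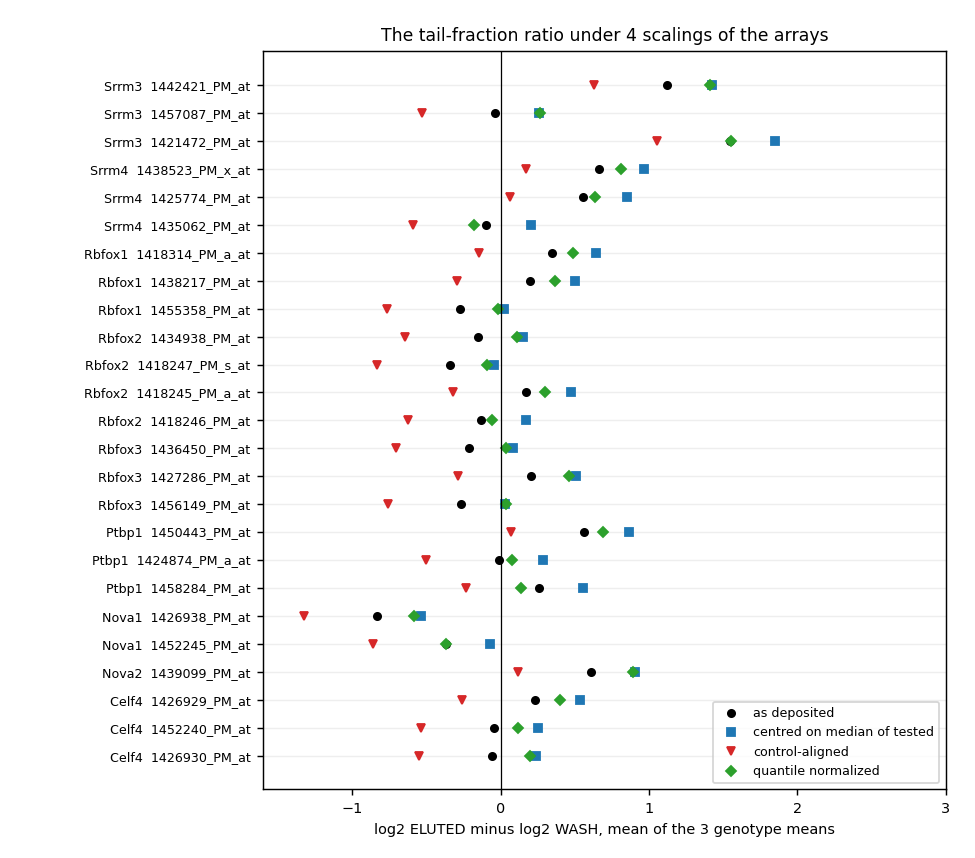
The horizontal axis gives the mean tail-fraction ratio (log2) of each of the 25 probe sets under 4 scalings: as deposited, arrays centred on the median of their tested probe sets, control-aligned, and quantile normalized. Centring and control alignment shift all probe sets alike, so their position against 0 moves, and among the probe sets that stay on 1 side of 0 under all 4, Srrm3 1442421_PM_at, Srrm3 1421472_PM_at and Nova1 1426938_PM_at were called under each.

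Srrm3, the microexon activator known from neurons and pancreatic endocrine cells, had the highest ratios among the members. Its lead probe set, 1442421_PM_at, had ratios of 0.71 and 0.86 in WT, 1.17 and 1.29 in CPEB4 GT/+, and 1.38 and 1.33 in CPEB4 KO. All 6 animals were well above 0, and the WT animals were the lowest. The mean ratio was 1.12 (SE 0.07, adjusted p = 2.29e-05), a 2.18-fold higher level in ELUTED, and 99.2% of tested probe sets had a lower ratio. The dimmer probe set 1421472_PM_at gave 1.38 and 1.25 in WT, 1.73 and 1.81 in CPEB4 GT/+, and 1.58 and 1.53 in CPEB4 KO. Its mean was 1.55 (SE 0.07, adjusted p = 1.86e-05), or 2.92-fold, above 99.9% of tested probe sets. The WASH values of this probe set, 5.91 to 6.23, were close to the filter level of 5.52. The third Srrm3 probe set, 1457087_PM_at, behaved differently: its ratios ran from -0.38 to 0.19, with 3 animals on each side of 0, and its mean of -0.04 was not called (adjusted p = 0.709). That mean was 0.26 both with centred arrays and after quantile normalization.

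Srrm4 encodes the better studied microexon activator, whose transcript is neuronal. The suffix of its lead probe set, 1438523_PM_x_at, marks in the array maker's naming that some of its probes may also bind other transcripts. The ratios of that probe set were 0.61 and 0.52 in WT, 0.59 and 0.96 in CPEB4 GT/+, and 0.68 and 0.61 in CPEB4 KO. The mean was 0.66 (SE 0.08, adjusted p = 0.000135), a 1.58-fold difference. Probe set 1425774_PM_at, without that suffix, gave 0.40 and 0.29 in WT, 0.42 and 0.78 in CPEB4 GT/+, and 0.58 and 0.85 in CPEB4 KO, with a mean of 0.55 (SE 0.08, adjusted p = 0.000423). Both means stayed above 0 under every scaling, but neither was called with control-aligned arrays, where they were 0.17 and 0.06. Srrm4 1435062_PM_at, the dimmest of the 3, ran from -0.54 to 0.14 with a mean of -0.10 (adjusted p = 0.387), and centring the arrays turned it to 0.20.

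The 3 Rbfox genes did not share a direction. Rbfox1, whose protein is the neuronal and muscle member, had lead ratios (1418314_PM_a_at) of 0.34 and 0.21 in WT, 0.36 and 0.43 in CPEB4 GT/+, and 0.26 and 0.45 in CPEB4 KO. The mean was 0.34 (SE 0.07, adjusted p = 0.00256) as deposited and -0.15 with control-aligned arrays. A further Rbfox1 probe set, 1438217_PM_at, had ratios of 0.12 to 0.28 and a mean of 0.20 (adjusted p = 0.0274), which turned to -0.29 under that alignment. Rbfox1 1455358_PM_at lay below 0 in every animal, from -0.42 to -0.11, with a mean of -0.28 (SE 0.07, adjusted p = 0.00896) that turned to 0.02 with centred arrays. Its 6 ratios lay below all ratios of the other Rbfox1 probe sets.

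Rbfox2, the broadly expressed member of the family, had 4 probe sets. The lead, 1434938_PM_at, had ratios from -0.36 to 0.16 with a mean of -0.15 (adjusted p = 0.119), and its sign turned with centred arrays (0.15) and after quantile normalization (0.11). Only 1418247_PM_s_at was called: its ratios were -0.33 and -0.41 in WT, -0.30 and -0.19 in CPEB4 GT/+, and -0.52 and -0.31 in CPEB4 KO, and its mean was -0.34 (SE 0.07, adjusted p = 0.00272), below 0 under every scaling but not called with centred arrays (-0.04) or after quantile normalization (-0.09). In the array maker's naming its suffix marks probes shared by several transcripts, which may include other genes. The means of 1418245_PM_a_at and 1418246_PM_at were 0.17 (adjusted p = 0.0688) and -0.13 (adjusted p = 0.146). The former turned to -0.32 with control-aligned arrays, and the latter to 0.17 with centred arrays.

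Rbfox3 encodes NeuN, the nuclear antigen used to mark most mature neurons. Its lead probe set, 1436450_PM_at, ranged from -0.44 to 0.16 with a mean of -0.22 (adjusted p = 0.0703), which turned to 0.08 with centred arrays and to 0.04 after quantile normalization. Probe set 1427286_PM_at was above 0 in all 6 animals, from 0.02 to 0.43, and its mean of 0.21 (adjusted p = 0.0411) turned to -0.28 with control-aligned arrays. Rbfox3 1456149_PM_at was below 0 in all 6, from -0.65 to -0.03, and its mean of -0.27 (adjusted p = 0.0277) turned to 0.03 with centred arrays and 0.04 after quantile normalization.

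Ptbp1, the repressor of neuronal exons, had 3 probe sets above the filter, and 2 of them were called higher in ELUTED as deposited. Its lead probe set, 1450443_PM_at, had ratios of 0.34 and 0.56 in WT, 0.29 and 0.65 in CPEB4 GT/+, and 0.48 and 1.06 in CPEB4 KO. The second KO animal was the highest and all 6 were above 0. The mean was 0.56 (SE 0.10, adjusted p = 0.00103), or 1.48-fold, and was 0.07 and not called with control-aligned arrays. Ptbp1 1458284_PM_at ran from 0.02 to 0.69 with a mean of 0.26 (adjusted p = 0.029), which became -0.23 under the same alignment. For 1424874_PM_a_at the range was -0.15 to 0.19 and the mean -0.01 (adjusted p = 0.867), with 0.29 in centred arrays and 0.08 after quantile normalization.

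The paralogues Nova1 and Nova2, which encode the neuron-specific proteins that bind YCAY clusters, lay on opposite sides. Nova1 1426938_PM_at had ratios of -0.71 and -0.70 in WT, -0.68 and -0.72 in CPEB4 GT/+, and -1.03 and -1.16 in CPEB4 KO. WT and CPEB4 GT/+ animals were close together and both KO animals were lower. The mean was -0.83 (SE 0.07, adjusted p = 4.21e-05), a 1.78-fold lower level in ELUTED, and it stayed called under the 4 scalings (-1.32 to -0.53). The second Nova1 probe set, 1452245_PM_at, was also below 0 in all 6 animals, from -0.50 to -0.15, with a mean of -0.37 (SE 0.07, adjusted p = 0.00143), and it was -0.07 and not called with centred arrays. The single Nova2 probe set, 1439099_PM_at, had ratios of 0.39 and 0.40 in WT, 0.42 and 1.00 in CPEB4 GT/+, and 0.63 and 0.81 in CPEB4 KO. Its mean was 0.61 (SE 0.09, adjusted p = 0.000434), or 1.52-fold, and was 0.12 and not called with control-aligned arrays.

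Celf4, whose protein binds the 3′ ends of many synaptic mRNAs as well as introns, showed the lead ratio nearest to 0 among the genes with a called lead. Its lead probe set, 1426929_PM_at, had ratios of 0.22 and 0.21 in WT, 0.25 and 0.30 in CPEB4 GT/+, and 0.31 and 0.11 in CPEB4 KO. The mean was 0.23 (SE 0.07, adjusted p = 0.0158), which turned to -0.26 with control-aligned arrays. Celf4 1452240_PM_at and 1426930_PM_at had means of -0.05 (adjusted p = 0.576) and -0.06 (adjusted p = 0.563), with animals on both sides of 0, and centring turned them to 0.25 and 0.24.

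Differences between 2 probe sets within an animal do not move with the centring or the alignment of arrays, because both shift all probe sets of an array alike. Related genes were therefore compared by the difference of their lead ratios in each of the 6 animals, with an exact two-sided sign permutation test whose smallest possible p is 0.03125. These 5 pairs were chosen after the ratios had been seen. Nova2 minus Nova1 was 1.44 ± 0.39 (SD, n = 6; exact p = 0.03125, adjusted p = 0.0391), above 0 in 6 of 6 animals. The difference between the Srrm3 and Srrm4 leads was 0.46 ± 0.24 (SD, n = 6; exact p = 0.03125, adjusted p = 0.0391), again above 0 in 6 of 6. It depended on the probe set, since Srrm3 1457087_PM_at, with a mean ratio of -0.04, lay below the Srrm4 lead (0.66). Rbfox1 exceeded Rbfox2 by 0.49 ± 0.11 and Rbfox3 by 0.56 ± 0.29 (SD, n = 6; exact p = 0.03125, adjusted p = 0.0391 for each), in 6 of 6 animals. This order holds for the lead probe sets: Rbfox1 1455358_PM_at, with a mean ratio of -0.28, lay below both the Rbfox2 lead (-0.15) and the Rbfox3 lead (-0.22). Between Rbfox2 and Rbfox3 the difference was 0.06 ± 0.36 (SD, n = 6; exact p = 0.688), above 0 in 3 of 6 animals, so these neighbours did not differ beyond the spread of animals.

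The same test was applied to the probe sets of each gene, 16 pairs in all. Of these, 10 had every animal on 1 side, at the smallest possible p of 0.03125 in the exact test. Their adjusted p was 0.05, so no pair passed the threshold of an adjusted p under 0.05. In Srrm3, the lead exceeded 1457087_PM_at by 1.16 ± 0.24 and fell short of 1421472_PM_at by a difference of -0.42 ± 0.20 (SD, n = 6). The lead of Srrm4 exceeded 1435062_PM_at by 0.76 ± 0.39, that of Rbfox1 exceeded 1455358_PM_at by 0.62 ± 0.19 and that of Ptbp1 exceeded 1424874_PM_a_at by 0.58 ± 0.29. For Nova1 the lead minus 1452245_PM_at was -0.46 ± 0.33, and for Rbfox3 the lead minus 1427286_PM_at was -0.42 ± 0.13. Which end of the transcript or which isoform each probe set reads was not analysed here. Where ELUTED was set against INPUT in place of WASH, 5 of the 16 pairs had every animal on 1 side.

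INPUT gives the level before the split, and each fraction was also set against it, on the deposited scaling. ELUTED minus INPUT was called for 10 of 25 probe sets (against 45.8% of all), 5 higher (against 15.9%) and 5 lower (against 30%). WASH minus INPUT was called for 15 of 25 (against 65.1%), 5 higher (against 43.7%) and 10 lower (against 21.4%). Both comparisons share the INPUT arrays. Srrm3 was high in ELUTED: the lead probe set was at 9.06 and 9.10 in WT INPUT, at 9.06 and 8.87 in WT WASH, and at 9.76 and 9.73 in WT ELUTED. Over all genotypes its ELUTED minus INPUT difference was 0.94 (SE 0.09, adjusted p = 0.000242) and its WASH minus INPUT difference -0.18 (SE 0.07, adjusted p = 0.0393). Srrm3 1421472_PM_at gave 1.09 (adjusted p = 0.00019) and -0.45 (adjusted p = 0.000521). The third, 1457087_PM_at, was higher than INPUT in both fractions, by 0.21 (adjusted p = 0.0389) in ELUTED and 0.25 (adjusted p = 0.012) in WASH.

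The Srrm4 lead was lower in WASH than in INPUT, by a difference of -0.52 (SE 0.05, adjusted p = 4.06e-05), and ELUTED minus INPUT was 0.14 (adjusted p = 0.148). The 2 main Srrm4 probe sets differed here, since 1425774_PM_at gave 0.44 (adjusted p = 0.00379) for ELUTED and -0.11 (adjusted p = 0.106) for WASH. Nova1 1426938_PM_at was higher in WASH by 0.64 (SE 0.07, adjusted p = 0.000117), while its ELUTED minus INPUT difference was -0.20 (adjusted p = 0.115). In WT its values were 7.92 and 7.93 in INPUT, 8.67 and 8.36 in WASH, and 7.96 and 7.66 in ELUTED, so WASH stood above the other fractions. By contrast Nova1 1452245_PM_at was lower in ELUTED (-0.30, adjusted p = 0.00679) and not called in WASH (0.07, adjusted p = 0.266).

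Nova2 was lower than INPUT in WASH (-0.35, adjusted p = 0.00122), and its ELUTED minus INPUT difference of 0.26 was not called (adjusted p = 0.0994). The Ptbp1 lead was higher in ELUTED (0.44, adjusted p = 0.0102) and not called in WASH (-0.12, adjusted p = 0.0874). The Rbfox2 lead was below INPUT in both fractions, with differences of -0.33 (adjusted p = 0.0214) in ELUTED and -0.18 (adjusted p = 0.0439) in WASH. In ELUTED Rbfox2 was also below INPUT by 1418247_PM_s_at (-0.48, adjusted p = 0.0012) and by 1418246_PM_at (-0.22, adjusted p = 0.0478). The Rbfox1 lead was lower than INPUT in WASH (-0.17, adjusted p = 0.0141) and not called in ELUTED (0.18, adjusted p = 0.0622). For Rbfox3 and Celf4 the lead probe sets were called in neither comparison.

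**Figure D3:**
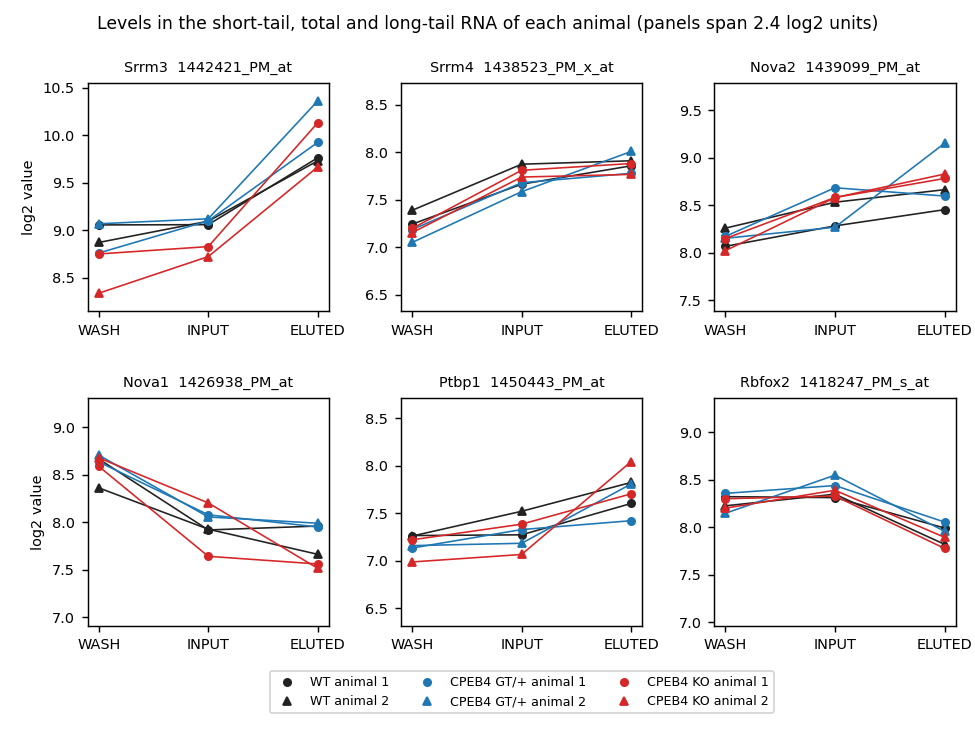
Vertical axes give the log2 value of 6 probe sets on every array, with the fractions WASH, INPUT and ELUTED along the horizontal axis and a line for each of the 6 animals (colours are genotypes); every panel spans the same number of log2 units around its own centre. Srrm3 stands apart in ELUTED and Nova1 in WASH.

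**Figure D4:**
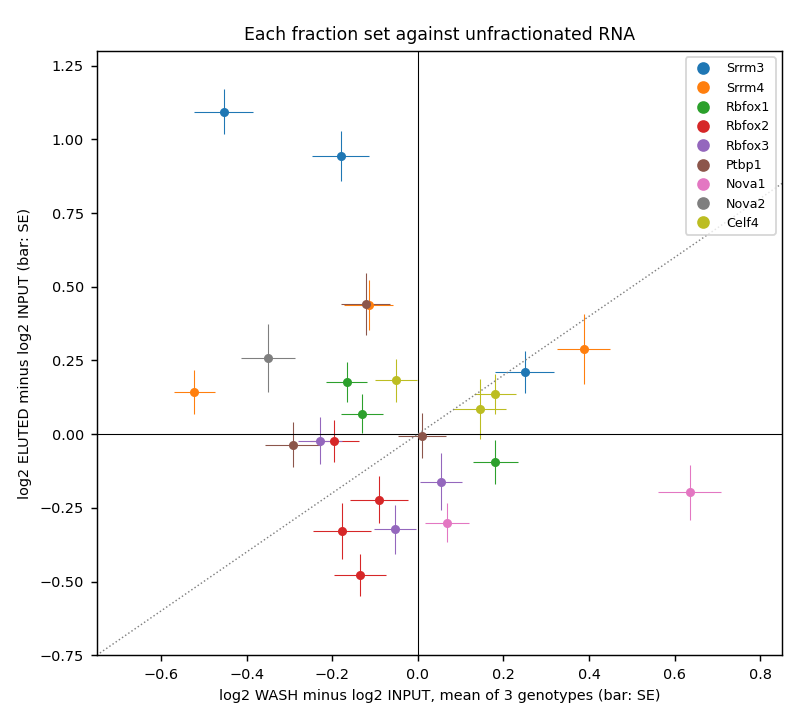
Each point is 1 of the 25 probe sets, coloured by gene, with its WASH minus INPUT difference on the horizontal axis and its ELUTED minus INPUT difference on the vertical axis (log2, mean of the 3 genotypes; bars are SE). Points above the dotted line have a tail-fraction ratio above 0 as deposited. The 2 uppermost points are Srrm3 (1.09 and 0.94) and the rightmost is Nova1 (0.64).

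By genotype, no member differed in total RNA at the threshold. In INPUT 0 of 25 probe sets were called in each of KO minus WT, CPEB4 GT/+ minus WT and KO minus CPEB4 GT/+, where 0.0385%, 0% and 0.00963% of all probe sets were called by limma. At an unadjusted p under 0.05 the counts were 2 of 25 (8%, against 11.1% of all), 0 (against 3.44%) and 3 of 25 (12%, against 8.09%). The 25 KO minus WT differences ran from -0.37 to 0.21 with SE of 0.10 to 0.17, the CPEB4 GT/+ minus WT differences from -0.23 to 0.27, and the KO minus CPEB4 GT/+ differences from -0.43 to 0.26. Animals of KO and WT did not overlap for 7 of 25 probe sets (28%, against 42.5% of all), those of CPEB4 GT/+ and WT for 8 (32%, against 32.7%), and those of KO and CPEB4 GT/+ for 10 (40%, against 37.7%). The smallest p an exact test can give between 2 and 2 animals is 0.333. WASH and ELUTED values compared by genotype in place of INPUT also gave 0 calls among the 25, where limma called 0.0578%, 0% and 0.0289% of all probe sets in WASH and 0.00482%, 0% and 0% in ELUTED, in the same order of comparisons.

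The INPUT values of the lead probe sets show how close the genotypes were. Rbfox1 had 11.27 and 11.42 in WT, 11.45 and 11.50 in CPEB4 GT/+, and 11.42 and 11.42 in CPEB4 KO. Rbfox3 had 10.16 and 10.26, 10.22 and 10.40, and 10.16 and 10.29 in the same order, with the 3 groups overlapping. Celf4 spanned 10.80 to 10.96 over the 6 animals. Rbfox2 values were 8.30 and 8.58 in WT, 8.45 and 8.44 in CPEB4 GT/+, and 8.32 and 8.37 in CPEB4 KO. The Ptbp1 lead gave 7.27 and 7.52, 7.33 and 7.18, and 7.39 and 7.07 in that order, and Srrm4 gave 7.67 and 7.88, 7.68 and 7.59, and 7.81 and 7.74. For each of these genes, the widest gap between animals of the same genotype exceeded the distances between genotype means. Not every genotype was that wide. The CPEB4 GT/+ and KO animals did not overlap for Rbfox1, Rbfox2 and Srrm4, nor did those of CPEB4 GT/+ and WT for Rbfox1. The shares of all probe sets without overlap are given above. Nova1 had 7.92 and 7.93 in WT, 8.08 and 8.06 in CPEB4 GT/+, and 7.64 and 8.20 in CPEB4 KO, so the KO animals stood on both sides of the others. Nova2 had 8.28 and 8.53, 8.69 and 8.27, and 8.58 and 8.58.

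**Figure D5:**
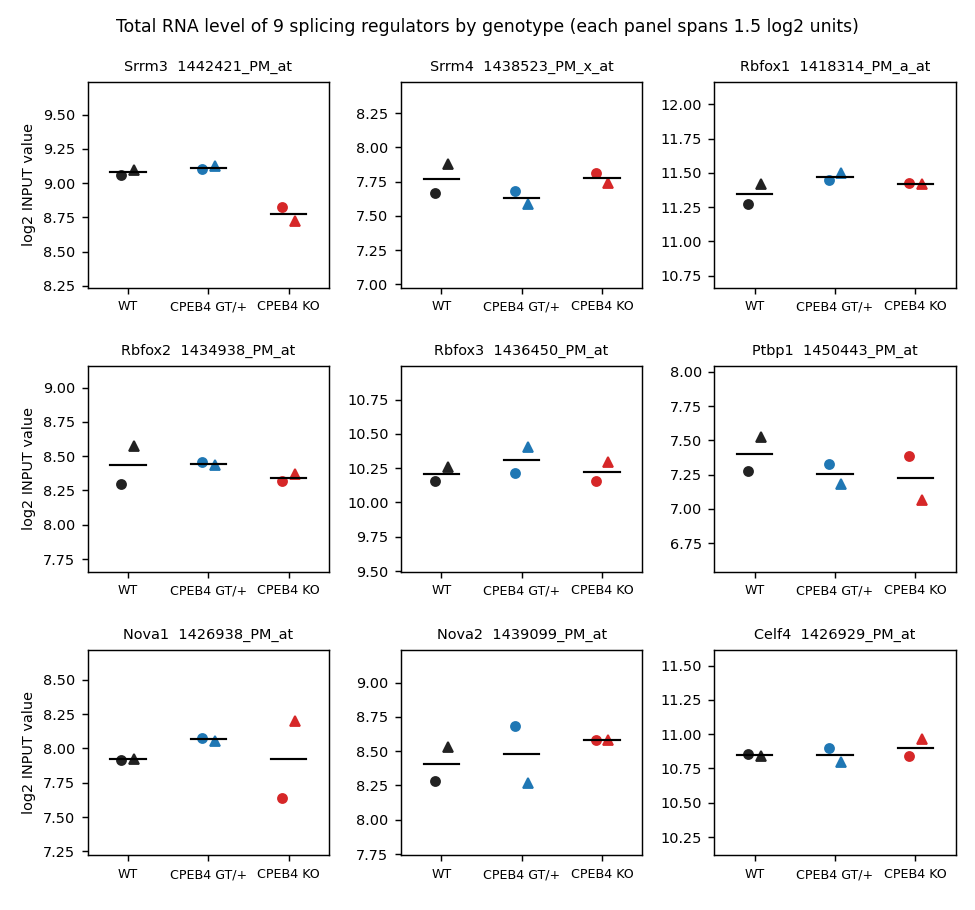
Vertical axes give the log2 INPUT value of the lead probe set of the 9 genes, with the 3 genotypes along the horizontal axis; circles and triangles are the 2 animals of each genotype and bars their mean, and every panel spans the same number of log2 units. Both KO animals lie below the other 4 for Srrm3 (8.83 and 8.72) and for none of the other 8 genes. The share of all probe sets that separate in this way was not counted.

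Srrm3 had the lowest unadjusted p among the members in INPUT, in KO minus CPEB4 GT/+, without passing the threshold. The lead probe set was at 9.06 and 9.10 in WT, 9.10 and 9.12 in CPEB4 GT/+, and 8.83 and 8.72 in CPEB4 KO. Both KO animals were below the other 4, and the share of all probe sets with KO animals so placed was not counted. The KO minus CPEB4 GT/+ difference was -0.33 (SE 0.10, unadjusted p = 0.00863, adjusted p = 0.497 by limma) and the KO minus WT difference -0.30 (SE 0.10, unadjusted p = 0.0144, adjusted p = 0.372 by limma). Probe set 1421472_PM_at had 6.64 and 6.61, 6.50 and 6.87, and 6.40 and 6.11, a KO minus WT difference of -0.37 (adjusted p = 0.432), which was 0.00 when the mean of the 3 fractions replaced INPUT. The third probe set, 1457087_PM_at, went the other way, with 8.25 and 8.49, 8.49 and 8.43, and 8.65 and 8.51, a difference of 0.21 (adjusted p = 0.537). Beside these, the mean INPUT level of the 10 neuron markers was 11.26 and 11.27 in WT, 11.28 and 11.27 in CPEB4 GT/+, and 11.21 and 11.37 in CPEB4 KO. The 7 microglia markers averaged 8.18 and 8.37, 8.39 and 8.28, and 8.55 and 8.46, and the 8 astrocyte markers 9.81 and 9.88, 9.72 and 9.78, and 10.01 and 9.94. The 4 oligodendrocyte precursor markers averaged 7.71 and 7.74 in CPEB4 KO and 7.54 to 7.63 in the other animals, and the 7 endothelial and mural markers 8.18 and 7.93 against 7.69 to 7.87. These 4 non-neuronal lists were each highest in the 2 KO animals, while the oligodendrocyte, striatal projection neuron, choroid plexus and blood lists were not, and their part in the Srrm3 values was not tested. In such tissue RNA, fewer cells of a type and less RNA per cell cannot be told apart.

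The tail-fraction ratio by genotype also gave 0 calls among the 25 in each of the 3 comparisons, where limma called 0% of all probe sets. At an unadjusted p under 0.05 there were 2 of 25 for KO minus WT (8%, against 6.39% of all), 2 for CPEB4 GT/+ minus WT (8%, against 1.04%) and 1 for KO minus CPEB4 GT/+ (4%, against 2.16%). The lead Srrm3 ratio was higher in KO than in WT by 0.57 (SE 0.17, adjusted p = 0.744) and in CPEB4 GT/+ than in WT by 0.45 (SE 0.17, adjusted p = 1.00). The WT animals did not overlap the other 4, and the share of all probe sets that separate in this way was not counted. Srrm3 1421472_PM_at gave 0.24 (adjusted p = 0.767) and 0.46 (adjusted p = 1.00) for the same comparisons. Nova1 1426938_PM_at was lower in KO than in WT by a difference of -0.39 (SE 0.17, adjusted p = 0.744), while 1452245_PM_at gave 0.18 (adjusted p = 0.803). The width of the ratio over all tested probe sets, as its interquartile range, was 0.69 and 0.58 in WT, 0.55 and 1.12 in CPEB4 GT/+, and 0.83 and 1.02 in CPEB4 KO. Both KO animals had a wider spread of ratios than both WT animals, and the part of that in the Srrm3 and Nova1 values was not tested.

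Other genes of the same kind were taken from lists, with 1 probe set per gene (12823 genes in all). Their p-values were adjusted over all 20766 probe sets tested. Of 29 further splicing regulators, 20 were tested, and as deposited 8 were higher in ELUTED than in WASH (40%) and 6 lower (30%), with a median ratio of 0.03. Over all genes 25.1% were higher and 48.6% lower, with a median of -0.18, and over the 9 members 6 were higher (66.7%) and 1 lower (11.1%), with a median of 0.34. Tra2a, a serine/arginine-rich splicing activator, had a ratio of 1.43 (SE 0.07, adjusted p = 2.14e-05). Srrm2, a scaffold of nuclear speckles, had 0.85 (adjusted p = 4.95e-05), and Esrp2, an epithelial splicing regulator, 0.65 (adjusted p = 0.000346). The mean level of the Esrp2 probe set, 6.14, was close to the filter level of 5.52. Srsf11, known as a partner of SRRM4 at microexons, was lower at -1.05 (SE 0.12, adjusted p = 0.000135), as were Khdrbs3 (SLM2) at -0.58 (adjusted p = 0.00128) and the neuronal Elavl2 at -0.45 (adjusted p = 0.00121).

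Of 25 genes with exons known as targets of these regulators or with neural microexons, 21 were tested. As deposited 9 were higher in ELUTED (42.9%) and 7 lower (33.3%), with a median of -0.04. Mef2d, a transcription factor with a neuronal exon, had a ratio of 0.83 (adjusted p = 5.74e-05). The adhesion molecule Nrcam had 0.68 (adjusted p = 0.000149), although its ELUTED minus INPUT difference was -0.35, and the endocytic scaffold Itsn1 had 0.37 (adjusted p = 0.00355), which became -0.12 with control-aligned arrays. Cpeb4 1420618_PM_at was lower at -1.34 (SE 0.14, adjusted p = 8.81e-05), although its ELUTED values in the KO animals, 5.94 and 5.79, were close to the filter level of 5.52. The other Cpeb4 probe set, 1449931_PM_at, had a smaller ratio of -0.40 (adjusted p = 0.00222), with 1 KO animal at 0.03. Its WASH minus INPUT difference of -0.43 was opposite in sign to the 0.94 of 1420618_PM_at. Also lower were Cpeb2 at -0.96 (adjusted p = 6.85e-05) and the adaptor subunit Ap1s2 at -0.83 (adjusted p = 0.000805). In INPUT, with 1 probe set per gene, 0 of the genes of either list were called between any of the genotypes, while the Cpeb4 probe set that this choice leaves out, 1449931_PM_at, was called in KO minus WT as given above.

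Cell type markers were read in the same way, on the deposited scaling. Of the 10 neuron markers, 2 were higher in ELUTED and 4 lower, with a median ratio of 0.04, and of 6 striatal projection neuron markers 1 was higher and 5 lower, with a median of -0.45. The medians were -0.15 for 8 astrocyte, -0.32 for 7 oligodendrocyte, -0.56 for 7 endothelial and mural and -0.78 for 7 microglia markers. They were 0.004 for 3 oligodendrocyte precursor, -0.08 for 4 choroid plexus and ependymal and -0.24 for 2 blood markers. Marker lists of different cell types thus had different median ratios, and their part in the members' ratios was not tested.

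The genes whose level varied most like a member over the 18 arrays were named by Pearson's r among 12822 other genes, as a description, since the arrays share their fractions and animals. For Srrm4 they were Lrtm1 (r = 0.960), Cfl1 (r = 0.959) and Shmt1 (r = 0.954), and for Ptbp1 Art5 (r = 0.941), Slc26a11 (r = 0.940) and Arid3b (r = 0.938). Rbfox3 had lower values, with Phf24 at 0.855, Otud7a at 0.817 and Nlk at 0.813.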

How the data were processed

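The values are log2 intensities that the authors made with RMA, per the submitters' processing notes. Its version and the annotation are not given in the sources used here. Amplification of 5 ng of RNA took 21 cycles, and 8 µg of the product was labelled, per the labels' protocols. Of 45141 probe sets, 28898 with 1 symbol were used, and those with a mean under 5.52 were left out; this is the 25th percentile of the genes' highest means, near the highest mean of 23 nonspecific controls (5.61). Linear models with genotype means were fitted in limma 3.58.1 (R 4.3.3) with 3 residual degrees of freedom. Their script was tested on simulated data. The number of arrays limits the precision.

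Same-numbered animals did not vary together in INPUT, and in the ratio only those of CPEB4 GT/+ and CPEB4 KO did, so no pairing by number was used. All tests were two-sided. The labels name animals by number, and p-values rest on the spread between these animals. In the limma fits, the spread of each probe set was moderated towards that of all tested probe sets. Named genes are the members, Cpeb4, the 3 strongest called genes per list and direction, and the 3 genes most correlated with Srrm4, Rbfox3 and Ptbp1. The members, lists and tests were chosen with earlier results of these data known. Alternatives covered the scaling, the filter, the choice of probe set, the trend of the spread, the replicate number as a block, INPUT in place of a fraction, and each animal left out. RefSeq symbols matched all 25 probe sets. Sequences of probes and proteins were not used here.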

Additional observations from a re-analysis of the deposited data

How the results depend on the processing

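Counts of called members in the tail-fraction ratio moved by over 1.5 times as follows, from 16 called, 11 higher and 5 lower. Settings with 1 value per gene tested 9 members in place of 25, and the cause of the changed counts was not tested. With 1 probe set per gene 7 were called (6 higher, 1 lower), and with the mean of a gene's probe sets 5 (4 higher, 1 lower). With centred arrays 1 was lower, after quantile normalization 2 were lower, and with control-aligned arrays 2 were higher and 14 lower. For ELUTED minus INPUT 10 were called, 5 of them higher, and 5 of 16 within-gene pairs had all animals on 1 side against 10. Leaving out 1 animal gave 10 to 18 called, 7 to 11 higher (7 without WT replicate 1, WT replicate 2 or CPEB4 KO replicate 1) and 3 to 7 lower. Of all called probe sets, 35.2% were higher as deposited, 61.8% with centred arrays, 41.7% after quantile normalization and 3.35% with control-aligned arrays. A fit with the replicate number as a block left 16 members called (11 higher, 5 lower) and 14965 of all probe sets against 15224. Differences between replicates 1 and 2 in the ratio correlated at -0.33 (WT and CPEB4 GT/+), -0.29 (WT and CPEB4 KO) and 0.48 (CPEB4 GT/+ and CPEB4 KO). The pairs of genotypes did not share a sign, so the numbers were not used to pair animals, and the block changed no member's call. Signs turned as follows. With centred arrays Srrm3 1457087_PM_at was 0.26, Srrm4 1435062_PM_at 0.20, Rbfox1 1455358_PM_at 0.024, Rbfox2 0.15 and 0.17, Rbfox3 0.083 and 0.029, Ptbp1 1424874_PM_a_at 0.29, and Celf4 0.25 and 0.24. With control-aligned arrays Rbfox1 was -0.15 and -0.29, Rbfox2 1418245_PM_a_at -0.32, Rbfox3 1427286_PM_at -0.28, Ptbp1 1458284_PM_at -0.23, Celf4 1426929_PM_at -0.26 and Itsn1 -0.12. Quantile normalization gave Srrm3 0.26, Rbfox2 0.11, Rbfox3 0.038 and 0.038, Ptbp1 0.079, and Celf4 0.11 and 0.20. In ELUTED minus INPUT, Srrm3 1457087_PM_at was 0.21, Srrm4 1435062_PM_at 0.29, Rbfox2 1418245_PM_a_at -0.023, Rbfox3 1427286_PM_at -0.022, Ptbp1 1458284_PM_at -0.036, Celf4 0.13 and 0.086, Nrcam -0.35 and Itsn1 -0.054. In INPUT minus WASH, Rbfox2 gave 0.18, 0.14 and 0.091, and Rbfox3 0.053. Leaving out 1 animal, Srrm3 1457087_PM_at ran from -0.10 to 0.028, Srrm4 1435062_PM_at from -0.21 to 0.015, Ptbp1 1424874_PM_a_at from -0.043 to 0.015 and Celf4 1426930_PM_at from -0.14 to 0.028, and none of these 4 means was called as deposited. With the mean of 3 fractions, the KO minus WT difference of Srrm3 1421472_PM_at was 0.0039 and the KO minus CPEB4 GT/+ difference of Rbfox2 1418245_PM_a_at -0.018.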
